A study of Mus musculus with 4 samples.

Results

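Methylated Pontin peaks on single transcription start sites (TSSs) were examined in mouse embryonic fibroblasts (MEFs) under glucose starvation. They were defined as the peaks whose centre lay at most 250 bp from the nearest TSS of any annotated transcript, without those within 1000 bp of both TSSs of a divergent pair, which is a pair of protein-coding genes that start at most 1000 bp apart on opposite strands and point away from each other. The rule used position only and held for 1421 of the 4311 peaks of the library (33.0%, 95% Wilson interval 31.6 to 34.4). A further 309 of the 1730 peaks within 250 bp of a TSS (17.9%) lay at divergent pairs and were left out.

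The experiment was a chromatin immunoprecipitation with sequencing (ChIP-seq) of MEFs, with an antibody specific for arginine-methylated Pontin. Of its 4 libraries, each a single sample, 2 were ChIPs and 2 were inputs, with cells in normal media or starved of glucose. All values below come from the peaks of the starved ChIP, a library of 20765512 tags, and the ChIP in normal media was not analysed here, so no change upon starvation can be given. There was no replicate, so no spread between cultures is known, no test was run, and every interval below covers counting error only.

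Pontin, encoded by Ruvbl1, is an AAA+ ATPase that works with its partner Reptin in chromatin complexes such as TIP60, INO80 and SRCAP, which acetylate histones or exchange and move nucleosomes around TSSs. CARM1, the arginine methyltransferase that the study links to Pontin, is a coactivator of transcription. In mammals the promoters of most broadly expressed genes lie in CpG islands, stretches rich in G, C and the CpG dinucleotide, and factors of the SP1, ETS, NRF1, NFY and YY1 families bind short motifs just upstream of or at their TSSs.

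The word single describes the rule and not the annotation. Exactly 1 TSS position lay within 250 bp of the centre in 517 of the 1421 peaks (36.4%), and the median was 2 positions and the highest number 16. In 1074 peaks (75.6%) no other gene had a TSS within 1000 bp of the TSS. A TSS of another gene on the opposite strand lay within 1000 bp in 299 peaks (21%).

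Promoter sequence at 6 of the peaks is shown here because the motif matches described below lie in such stretches. For each motif, the peak with the most tags was taken that had its match in a run of over 30 bases of the central 200 bp, before the TSS of a protein-coding gene and outside every annotated exon. The stretches are from GRCm38, on the minus strand, written from 5′ to 3′, and the capitals mark the match. Zfp644 carried a GC box at chr5:106696190-106696233, Kat5 an NFY box at chr19:5610238-5610269, Smndc1 an ETS site at chr19:53390307-53390415, Ostc an NRF1 site on the opposite strand at chr3:130709445-130709611, Poglut1 a YY1 site on the opposite strand at chr16:38550259-38550388 and Ctnnd1 a TATA box at chr2:84650890-84651089.
Zfp644, GC box: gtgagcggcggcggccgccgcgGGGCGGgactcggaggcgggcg
Kat5, NFY box: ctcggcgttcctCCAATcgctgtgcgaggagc
Smndc1, ETS site: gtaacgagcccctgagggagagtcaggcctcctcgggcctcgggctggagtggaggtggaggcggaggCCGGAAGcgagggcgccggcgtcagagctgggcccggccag
Ostc, NRF1 site: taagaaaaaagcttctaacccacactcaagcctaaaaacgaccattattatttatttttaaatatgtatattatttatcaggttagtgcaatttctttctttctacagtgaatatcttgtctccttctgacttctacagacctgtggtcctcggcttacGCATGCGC
Poglut1, YY1 site: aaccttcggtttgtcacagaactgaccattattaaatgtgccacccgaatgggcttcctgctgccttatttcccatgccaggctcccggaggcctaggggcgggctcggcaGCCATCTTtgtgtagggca
Ctnnd1, TATA box: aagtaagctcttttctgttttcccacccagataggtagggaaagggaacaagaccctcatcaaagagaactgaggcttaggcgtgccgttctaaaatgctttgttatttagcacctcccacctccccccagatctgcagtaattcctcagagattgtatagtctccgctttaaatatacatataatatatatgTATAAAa

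These stretches differ in base composition. The Zfp644 stretch, 67 to 24 bp before the TSS, had a GC content of 88.6%, and its match began 45 bp before the TSS. The Smndc1 stretch had a GC content of 74.3%, with the ETS site beginning 58 bp before the TSS. This TSS is 289 bp from the first TSS of the gene, and the peak centre lay over an intron. At Ostc, which encodes a subunit of the oligosaccharyltransferase complex, the stretch had a GC content of only 35.3%, and the NRF1 site occupied the last 8 bp before the TSS. In the Poglut1 stretch (56.2% GC) the YY1 site began 19 bp before the TSS. The Ctnnd1 stretch, 324 to 125 bp before the TSS of the gene for p120 catenin, had a GC content of 40.5%, and its TATAAA match began 131 bp before the TSS.

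The peaks were of moderate height. The tag count, given per 10000000 sequenced tags, had a median of 14.7 (95% interval of the median 14.4 to 14.9), and its quartiles were 12.5 and 17.8. This median equals 30.5 tags in the library, and the lowest and highest peaks had 17.0 and 71.0 tags. All other peaks had a median of 14.0 tags per 10000000. By class, the medians were 14.9 at divergent pairs, 15.2 from 251 to 2500 bp upstream of a TSS, 14.0 at the same distance downstream and 12.5 farther away, so the peaks on single TSSs were not the highest of the list. The median fold over input was 9.45 (9.03 to 9.81) against 8.51 for all other peaks, and 835 of the 1421 peaks (58.8%, 56.2 to 61.3) were at least 8-fold over input, beside 55.9% of all peaks. The median input behind this ratio was 2.0 tags, and 180 peaks (12.7%) stood at 0.5 input tags, the lowest value in use, so a single peak's fold is imprecise. The fold over the surrounding 10 kb had a median of 5.10, against 4.86 for all other peaks, close to the limit of 4 that the peak list required.

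The peak with the most tags was at Kxd1, which encodes a subunit of the BORC complex that positions lysosomes, with 34.2 tags per 10000000 (71.0 tags in the library, 95% exact Poisson interval 55.5 to 89.6), and it lay over an intron 204 bp upstream of an internal TSS that is 4677 bp from the first TSS of the gene. Eif4b, which encodes a translation initiation factor, followed with 34.0. The intervals of these peaks overlap, so their order is not resolved. Usp16, encoding a deubiquitinase of histone H2A, had 32.7, the antisense transcript 1600020E01Rik had 31.5, and Tomm70a, encoding a receptor of mitochondrial protein import, had 31.3. Pick1 (a PDZ-domain scaffold) had 30.8, Sf1 (the branch-point binding protein) and Smndc1 (a spliceosome assembly factor) both had 30.6, and Ubxn1 (a cofactor of the p97 ATPase) and Ap1g1 (a subunit of the AP-1 clathrin adaptor) both had 30.3.

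Tag counts differed between chromosomes. The median of the single-TSS peaks was 19.5 on chromosome 15 (18.1 to 20.2, 64 peaks) and 18.8 on chromosome 8 (17.3 to 20.7, 77 peaks), but 11.6 on chromosome 7 (11.1 to 12, 94 peaks). On the X chromosome it was 11.55 (9.87 to 13.0, 14 peaks). The median of all peaks moved in the same way, with 18.1, 18.5, 11.6 and 10.4 on these chromosomes. The median input behind the peaks was 3 tags on chromosomes 8 and 15 and 1.5 on chromosome 7, and the median fold over input was 7.33 on chromosome 15 and 10.6 on chromosome 7. Chromosomes 8, 15, 16 and 19 held 228 of the 1421 peaks but 32 of the 50 with the most tags. These chromosomes were picked with the tag counts known, so this excess only describes the same values. After division by the median of all peaks on the chromosome, 5 of the 10 peaks above stayed among the highest 10, and these were 1600020E01Rik (2.25), Usp16 (2.22), Tomm70a (2.13), Eif4b (1.88) and Kxd1 (1.85). The part of the input in these differences was not tested.

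**Figure D1:**
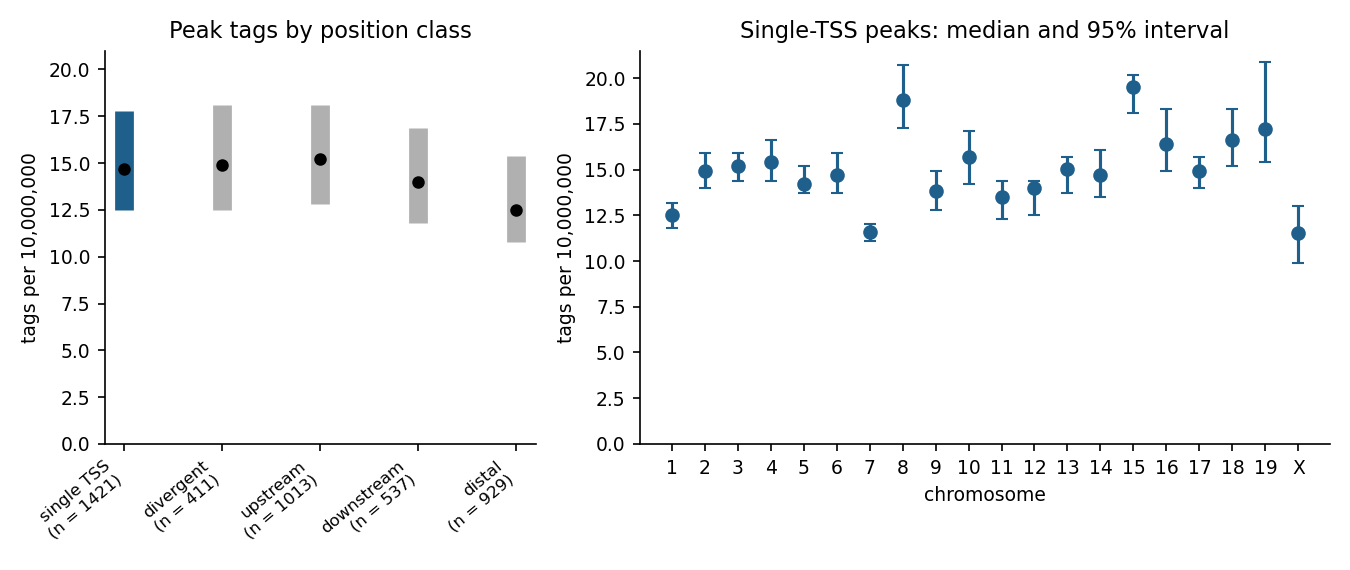
Tags per 10000000 in the methylated Pontin ChIP library under glucose starvation. Left, median (point) and quartiles (bar) of each position class, with the single-TSS peaks in blue at a median of 14.7. Right, median and 95% interval of the single-TSS peaks on each chromosome, highest on 15 and 8 (19.5 and 18.8) and lowest on 7 and X.

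The highest folds over input rested on almost no input. All of the 10 highest single-TSS peaks by this ratio stood at 0.5 input tags. They were led by 1600020E01Rik at 81.6-fold and Kmt5b, encoding a methyltransferase of histone H4 lysine, at 77.9-fold, followed by Polr2m, which encodes an RNA polymerase II associated subunit, at 65.4-fold and Pabpc1, the gene of a poly(A)-binding protein, at 64.8-fold. The others were Zdhhc17, CR974462.3, Gm4262, Sfswap, Poglut1 and 2700016F22Rik, from 61.7-fold down to 57.3-fold. The ratio to the surrounding 10 kb was highest at C030010L15Rik (11.8-fold), Gm27325 (11.6-fold), Prpf39 (11.5-fold), Wdr60 (10.9-fold) and Ubxn2a (10.6-fold). Usp16 had 10.01-fold by the same measure.

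The distance limit cut through a continuous range of positions. Just inside it lay Eif2ak1, encoding the haem-regulated kinase of eIF2α, at 250 bp with 14.0 tags per 10000000, Eloa at 250 bp with 9.63 and Srp14, encoding a protein of the signal recognition particle, at 249 bp with 20.2. Just outside lay Gm47941, Gm31105 and Zfp958 at 251 bp, with 15.9, 15.2 and 14.4.

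Most peak centres lay downstream of the TSS. Of the 1421 centres, 891 (62.7%, 60.2 to 65.2) were downstream, 524 (36.9%) were upstream and 6 were on the TSS itself, and the median position was 55 bp downstream. With the distance limit raised to 500 bp, which took in 2319 peaks, the share downstream was 52.7% (50.7 to 54.8). Beyond the limit of 250 bp the majority was upstream, with 1013 peaks from 251 to 2500 bp upstream and 537 at the same distance downstream. In bins of 50 bp, the count was highest from 50 to 100 bp downstream, with 240 peaks, and lowest from 100 to 50 bp upstream, with 70 peaks. It rose again farther upstream, to 150 peaks between 250 and 200 bp before the TSS. The 100 bp before the TSS held 169 centres (11.9%) and the 100 bp after it 404 (28.4%). The median tag count was 14.7 (14.2 to 15.2) upstream and 14.9 (14.4 to 15.2) downstream, with overlapping intervals. Among the 165 peaks with exactly 1 TSS position within 1000 bp, for which the side cannot depend on the choice among TSSs, 58.2% (50.6 to 65.4) were downstream. The 560 peaks at the first TSS of their gene had only 41.1% of centres downstream, but a centre downstream of such a TSS can be nearer to a later TSS of the same gene and is then counted there.

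The centres lay in GC-rich DNA. The central 200 bp had a median GC content of 64.0% (63.5 to 65.0), against 50% for all other peaks. A CpG-rich centre, meaning 500 bp with a GC content of at least 50% and an observed to expected CpG ratio of at least 0.6, was found in 1047 peaks (73.7%, 71.3 to 75.9). The share was 71.8% at divergent pairs, 16.3% upstream, 42.8% downstream and 3.88% farther away. Downstream centres were richer than upstream ones, with median GC contents of 67.0% (66.5 to 68.0) and 56.5% (55 to 57.5) and CpG-rich shares of 82.2% and 59.2%. The median GC content rose from 51.5% in the bin farthest upstream to 68.0% between 150 and 200 bp downstream.

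**Figure D2:**
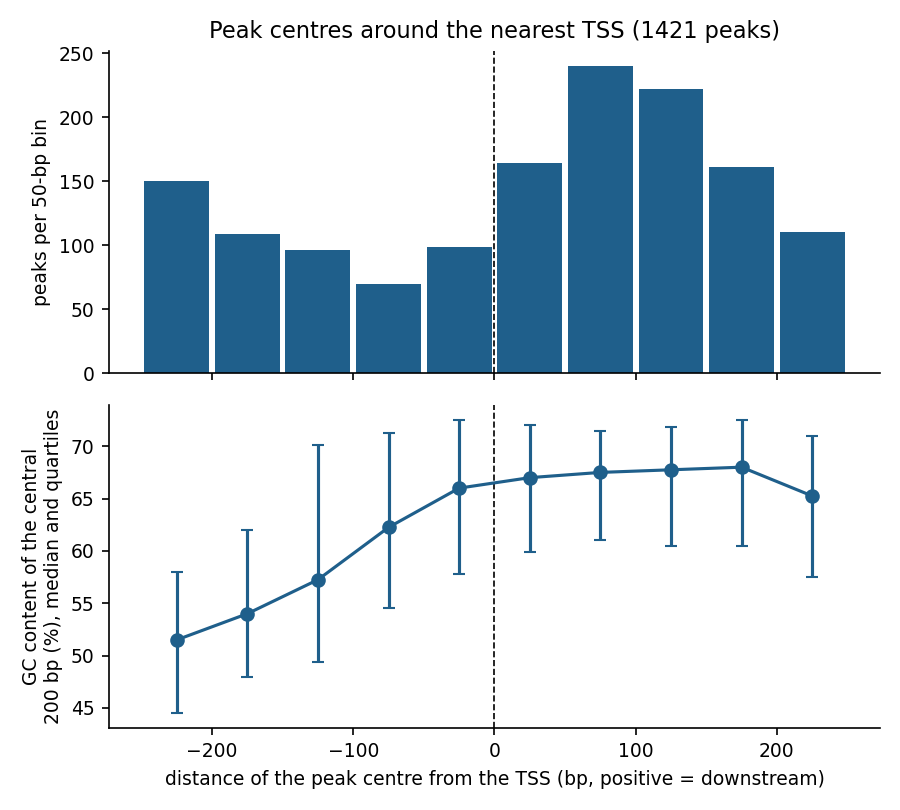
Positions of the 1421 peak centres around the nearest TSS (top, peaks per 50-bp bin) and GC content of their central 200 bp (bottom, median with quartiles). Centres were most frequent from 50 to 100 bp downstream (240 peaks) and least frequent from 100 to 50 bp upstream (70 peaks), and the median GC content was lowest in the bin farthest upstream (51.5%), highest from 150 to 200 bp downstream (68.0%) and 65.25% in the last bin.

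Upstream centres did not sit on the GC-rich side of their promoters. For each peak, the window at the same distance on the other side of the TSS was taken. For the 356 centres at least 100 bp upstream, the peak's window had a median GC content of 53.0% and the mirrored window downstream had 66.75%, and the peak's window was the richer of the pair in 19.4% (15.6 to 23.8). For the 493 centres at least 100 bp downstream, the medians were 67.0% at the peak and 59.5% at its mirror, and the peak's window was richer in 67.7%. Around the outermost coding TSSs of 1304 protein-coding genes with a single-TSS peak, which are not always the TSSs nearest to the peaks, the median GC content rose from 51.5% at 200 bp upstream to 68.0% at 200 bp downstream. Around 18126 such TSSs of genes without a peak within 2500 bp, it rose from 50% to 57.5%, so the rise was larger around the genes with a peak. The sets were not matched for CpG-rich TSSs, which made up 1045 of the 1304 and 7534 of the 18126. The part of this in the difference was not tested. The median tag count was 14.9 (14.7 to 15.2) for CpG-rich centres and 14.4 (13.7 to 14.9) for the others.

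The nearest TSS belonged to a protein-coding gene in 1245 peaks (87.6%, 85.8 to 89.2). Antisense transcripts accounted for 47, lincRNAs for 42, other processed transcripts for 31, bidirectional promoter lncRNAs for 13, miRNAs for 10, snRNAs for 5 and snoRNAs for 3. By location, 397 centres lay in untranslated exons, 343 in introns, 267 between genes, 222 in coding exons and 192 in exons of transcripts without a coding sequence. The 176 peaks with another kind of gene nearest had a median GC content of 57.5% (54.5 to 60.0) against 65.0% for the protein-coding ones, and 72.2% (65.1 to 78.3) of their centres were downstream. Their median tag count was 14.55, against 14.7. The peak at Snhg15, a host transcript of a small nucleolar RNA, had 25.8 tags per 10000000, that at Rnu12, the U12 RNA of the minor spliceosome, had 22.6, and that at Mirlet7i, which encodes a let-7 miRNA, had 18.3. These genes were named after their values had been seen.

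A peak on a single TSS was present at 1311 of 21938 protein-coding genes (5.98%), which is the background for the gene lists. Among the 21853 of these genes that have a coding transcript, whose outermost TSS was classified, the share was 9.88% (9.33 to 10.5) of the 10577 with a CpG-rich TSS and 2.30% (2.04 to 2.59) of the 11276 without one. The lists were compared with these shares as a description only.

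Lists of genes for protein synthesis and splicing had shares above the background. Among the 79 cytoplasmic ribosomal protein genes 18 had one (22.8%, 14.9 to 33.2), and among the 78 mitochondrial ribosomal protein genes 16 did (20.5%, 13.0 to 30.8). Aminoacyl-tRNA synthetases, which charge tRNAs with their amino acids, had 7 of 37 (18.9%), with 23.8 tags per 10000000 at Gars, 22.6 at Tars and 19.5 at Dars, and splicing factors and hnRNPs had 13 of 67 (19.4%), with 21.7 at Snrpb and 19 at Hnrnpl. Within CpG-rich promoters alone the shares were 22.1% and 21.4% for the ribosomal lists, 20.6% for the synthetases and 21.1% for the splicing list, beside 9.88%. Zfp zinc finger genes, many of which encode KRAB repressors, had 66 of 394 (16.8%, 13.4 to 20.8), led by Zfp330 with 27.2 tags, Zfp706 with 24.6, Zfp644 with 24.1 and Zfp617 with 23.6. At Zfp706 the nearest TSS was that of the antisense transcript Gm26766, so this peak cannot be assigned to 1 gene of the pair.

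Subunits of Pontin's own complexes were among the genes with a peak. Of 37 genes of the Pontin and Reptin complexes, 6 had one (16.2%, 7.65 to 31.1). Kat5, which encodes the TIP60 acetyltransferase, had the highest, with 28.4 tags per 10000000 (59.0 tags, 44.9 to 76.1), its centre 67 bp downstream of the TSS and 14.7-fold over input. Yeats4, encoding the acetyl-lysine reader GAS41, had 20.7, Vps72, encoding the H2A.Z chaperone YL1, had 19.5, and Trrap, the gene of the large scaffold of TIP60, had 18.8. The remaining members were Ino80b and Morf4l1 with 12.8 each, named here because the count is small. The Yeats4 peak was nearest to the TSS of Gm48772, a lncRNA on the opposite strand. Within CpG-rich promoters the list had 4 of 28 (14.3%, 5.70 to 31.5), an interval that includes 9.88%.

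Autophagy and lysosomal genes also had shares above the background of 5.98%. Of 45 autophagy genes, 7 had a peak on a single TSS (15.6%, 7.75 to 28.8). For the CpG-rich ones this was 5 of 36 (13.9%, 6.08 to 28.7), an interval that includes 9.88%. Atg101, a subunit of the ULK1 initiation complex, had 21.2 tags per 10000000, Pik3c3 and Pik3r4, which encode the VPS34 lipid kinase and its VPS15 regulator, had 20.2 and 17.8, and the autophagy receptor gene Tax1bp1 had 15.9. The Tax1bp1 peak was nearest to a TSS of Gm43966, 25 bp upstream of it. Becn1, whose protein joins the same lipid kinase complex, had 12 and was named after its value had been seen. Of 54 lysosomal genes, 7 had one (13.0%, 6.42 to 24.4), with 22.2 tags at Atp6v1c1, a subunit of the proton pump, 21.7 at the tetraspanin gene Cd63 and 20 at Idua, which encodes a lysosomal hydrolase. For the CpG-rich ones this was 1 of 37 (2.70%, 0.479 to 13.8), an interval that includes 9.88%. The Idua peak was nearest to a TSS of Dgkq. Map1lc3b, Sirt1, Bnip3, Ctns, Atg14 and Skp2, which the study assayed individually, had no peak on a single TSS. The study's ChIP assays included FOXO response elements, some of them distal, so the 250 bp rule does not test those sites. The study also assayed CLEAR motifs, which TFEB binds, at Map1lc3b, Ctns and Atg14 and did not find methylated Pontin recruited there. At the Skp2 promoter the study did not observe recruitment of Pontin. The peak list did hold a peak 381 bp upstream of a Sirt1 TSS (12.5 tags per 10000000, 8.10-fold over input). It also held a peak of the divergent class 336 bp downstream of a Ctns TSS (12 tags, 31.15-fold, resting on the lowest input value in use). Another lay 2896 bp downstream of a Bnip3 TSS (11.6 tags, 14.95-fold). The peak nearest to a Map1lc3b TSS was 9857 bp away (22.2 tags, 5.73-fold), 1261 bp upstream of a Gm17786 TSS. For Atg14 and Skp2 the nearest peaks were 739448 and 1208863 bp away.

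Among the other lists, proteasome subunits had 5 of 39 (12.8%, 5.60 to 26.7), with 26.2 tags per 10000000 at Psmb4, and Hox genes had 3 of 39 (7.69%), at Hoxc4, Hoxb3 and Hoxd8. Replication-dependent histone genes had 0 of 67, which allows a share of up to 4.48% (3 counts of the total), although 77.6% of them have a CpG-rich TSS. Collagens had 1 of 44 and olfactory receptors 0 of 1092 (up to 0.275%). Of 10 fibroblast markers, Vim, encoding the intermediate filament vimentin, had a peak with 18.8 tags, and 0 of 20 markers of other cell types did (up to 15%). A CpG-rich TSS was present in 27.3% of the collagens, 0% of the olfactory receptors and 30% of the markers of other cell types. Among all protein-coding genes without a CpG-rich TSS, the share with a peak on a single TSS was 2.30%. Peaks do not measure expression, so the labelled cell type could not be checked from them.

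**Figure D3:**
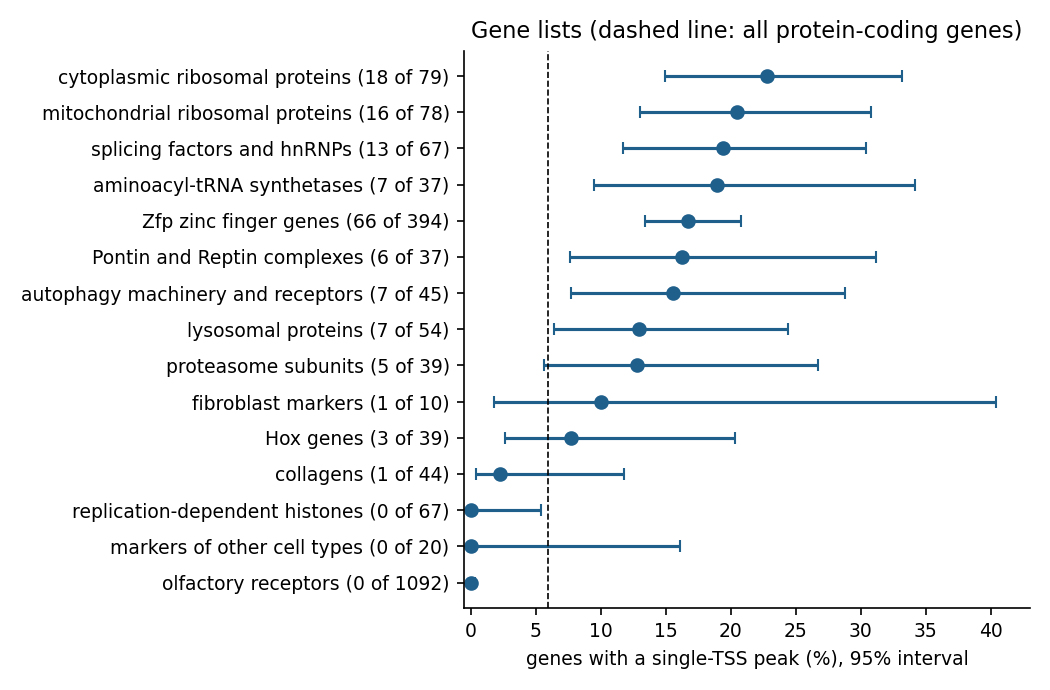
Share of the genes in each list with a methylated Pontin peak on a single TSS (point) and its 95% Wilson interval (bar). The dashed line is the share of all protein-coding genes, 5.98%. The ribosomal protein lists are highest at 22.8% and 20.5%, and the histone, olfactory receptor and other cell type lists have no such peak.

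Short motifs were counted in the central 200 bp of the peaks, on either strand, each peak once. The letters searched were GGGCGG for the SP1/KLF GC box, CCAAT for the NFY box, CCGGAAG for the ETS site, GCGCATGC for the NRF1 site, TGACGTCA for the CRE, CACGTG for the E-box, GCGGGAA for the E2F site, GTAAACA for the FOXO site, AAGATGGC for the YY1 site and TATAAA for the TATA box. GC box and E2F matches can overlap, since the letters GCGG occur in both. A match is a description of the sequence and not of a bound factor.

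The GC box was the most frequent, in 540 of the 1421 peaks (38.0%, 35.5 to 40.6), against 13.4% of all other peaks. The ETS site was found in 7.67% (6.40 to 9.17) against 2.94% and the E2F site in 7.18% (5.95 to 8.64) against 2.49%. The order was reversed for sites rich in A and T, with the FOXO site in 0.915% (0.535 to 1.56) against 2.60% and the TATA box in 3.24% against 8.20%. The FOXO share of the single-TSS peaks was 1.64% with a limit of 500 bp and 3.17% over the whole peak, a wider window. The study's own motif analysis of this ChIP-seq ranked FOXO3a response elements first by significance. That is an enrichment, and a share of exact letters is another measure and does not test it. The NFY box was found in 14.3% against 19.3%. The YY1 site (3.10% and 1.87%), the E-box (4.71% and 4.12%), the NRF1 site (1.06% and 0.623%) and the CRE (0.281% and 0.277%) had intervals that overlapped. The GC contents of the peaks differed as given above, and no correction for them was made in these shares.

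Promoters that differ in GC content can be compared more closely at the TSS itself. For each protein-coding gene, the 200 bp around the outermost TSS of its coding transcripts were searched, and only CpG-rich TSSs were kept, 1045 of genes with a peak on a single TSS and 7534 of genes with no peak within 2500 bp. The ETS site was found at 24.9% (22.4 to 27.6) of the TSSs of genes with a peak and 13.4% (12.6 to 14.2) of those of genes without. The YY1 site was found at 7.27% (5.85 to 9.01) and 3.97% (3.55 to 4.43), the NRF1 site at 6.89% (5.51 to 8.59) and 4.31% (3.88 to 4.80), and the E-box at 10.2% (8.54 to 12.2) and 7.87% (7.28 to 8.50). The GC box ran the other way, with 61.6% (58.6 to 64.5) against 70.1% (69.1 to 71.2), and so did the NFY box, with 23.3% (20.9 to 26.0) against 28.6% (27.6 to 29.6). The CRE (3.92% and 3.09%), the E2F site (8.33% and 7.65%), the FOXO site (1.34% and 0.969%) and the TATA box (1.91% and 2.93%) had overlapping intervals. Without the restriction to CpG-rich TSSs, the GC box was found at 53.7% of the TSSs of genes with a peak and 37.5% of those without. The NFY box then stood at 24.5% and 28.0%. Over the TSSs of all 21853 protein-coding genes with a coding transcript, the ETS site was found in 9.58%, the YY1 site in 2.79%, the NRF1 site in 2.72%, the E-box in 5.60%, the GC box in 40.5%, the NFY box in 27.8%, the CRE in 2.03%, the E2F site in 4.43%, the FOXO site in 1.56% and the TATA box in 8.02%.

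**Figure D4:**
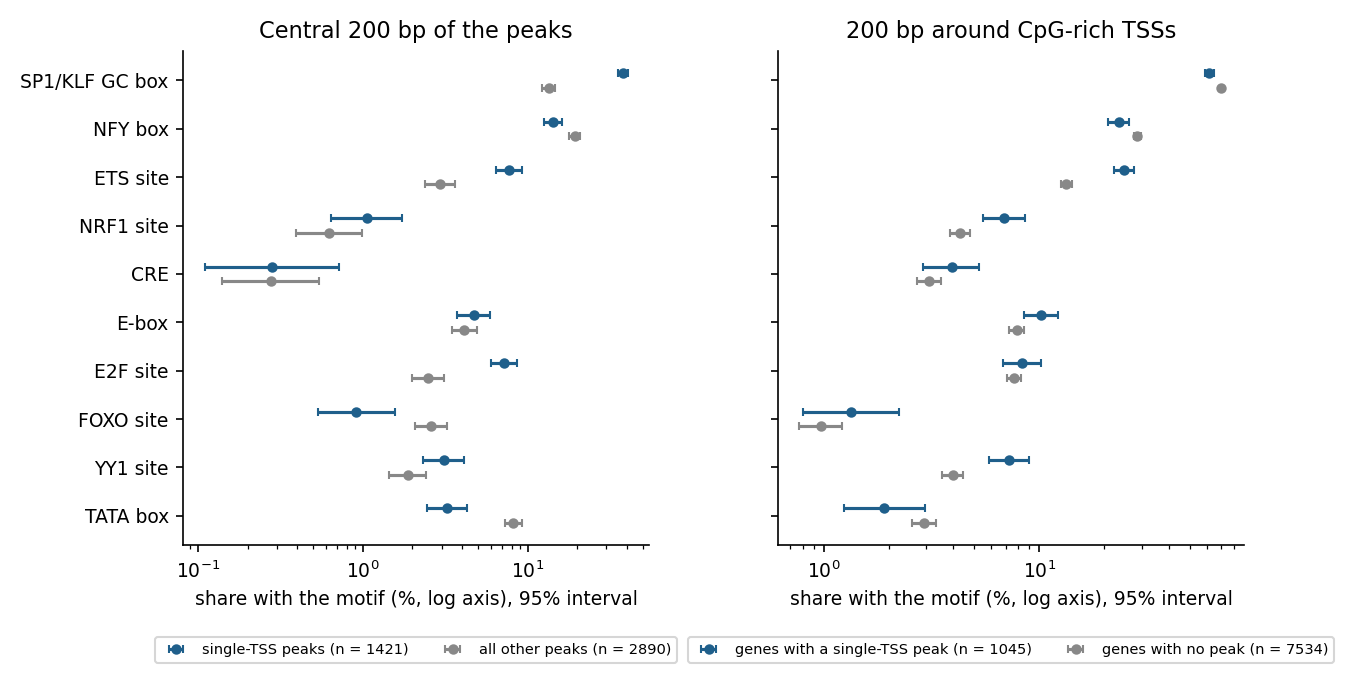
Shares with a motif match and their 95% Wilson intervals, on a log axis. Left, the central 200 bp of the single-TSS peaks (blue) and of all other peaks (grey). Right, the 200 bp around CpG-rich TSSs of protein-coding genes with a single-TSS peak (blue) and without a peak within 2500 bp (grey), where the ETS site stood at 24.9% and 13.4% and the GC box at 61.6% and 70.1%.

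Matches of several motifs were less frequent at the peak centres than on the side of the TSS. The peaks were turned so that the nearest TSS was on the left, and matches were counted in bins of 80 bp. By the rule, the TSS itself lay at most 250 bp to the left of the centre. The ETS site was found in 9.43% and 9.08% of the peaks in the bins from 240 to 161 and from 160 to 81 bp on the TSS side, in 3.45% and 2.04% in the bins on either side of the centre, and in 2.67% and 3.66% beyond it. The NRF1 site fell from 2.25% and 1.90% on the TSS side to 0.493% and 0.211% at the centre and stood at 0.915% and 0.704% beyond it. The YY1 site fell from 2.46% and 2.89% to 1.55% and 0.563% and stood at 1.06% and 0.422% beyond the centre. The CRE was found in 0.915% and 1.13% of the peaks in these bins on the TSS side, in 0.211% just before the centre and in 0 of 1421 just after it, which allows up to 0.211%. In the outermost bin away from the TSS the CRE was again found in 0.774%. The GC box went from 28.6% in the outermost bin on the TSS side to 18.2% just past the centre. It was lowest, at 16.1%, in the outermost bin away from the TSS, so its share was not lowest at the centre. The E2F site was about as frequent at the centre, with 3.03% and 3.52% in the bins there against 3.10% and 2.74% on the TSS side. Sites rich in A and T had another pattern, with the TATA box at 0.774% in the outermost bin on the TSS side and 2.25% in the outermost bin away from it, and the FOXO site between 0.281% and 0.844% in all bins. The NFY box stood at 9.99% in the outermost bin on the TSS side, 5.35% just before the centre and 8.02% in the outermost bin away from the TSS. The median GC content of the same bins was 65.0%, 65.0%, 63.75%, 63.75%, 61.25% and 57.5% from the TSS side outward, and its part in the match shares was not tested. All other peaks had lower ETS and NRF1 shares in every bin, with 3.11% for the ETS site in the outermost bin on the TSS side and 1.07% just before the centre.

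**Figure D5:**
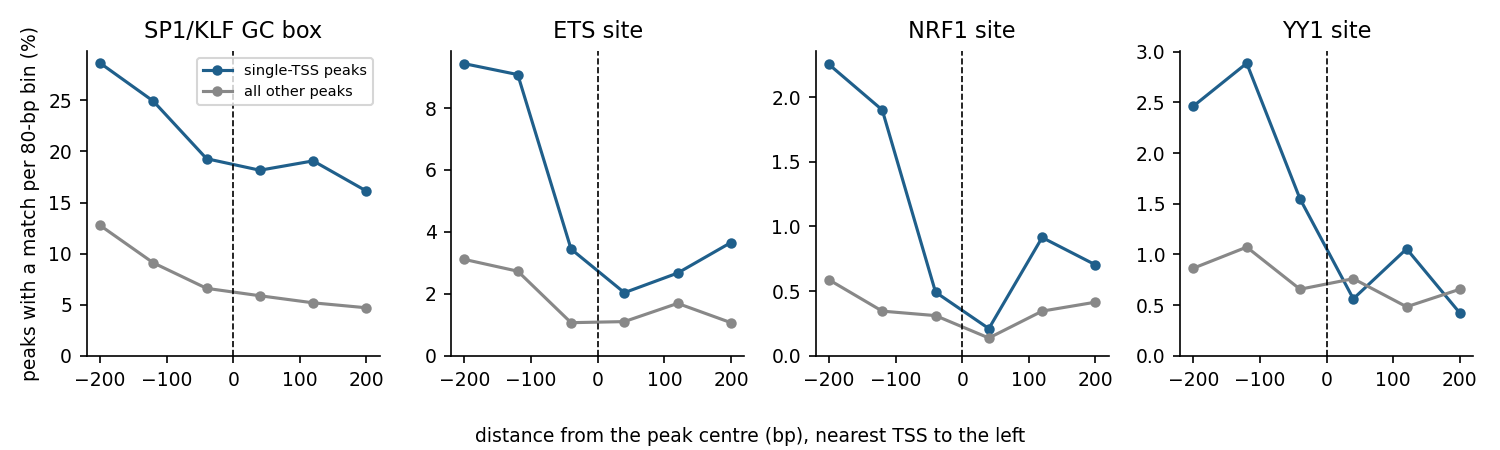
Peaks with a motif match in each 80-bp bin from the peak centre (per cent of the peaks), with the nearest TSS to the left, for single-TSS peaks (blue) and all other peaks (grey). In single-TSS peaks the ETS site fell from 9.43% on the TSS side to 2.04% just past the centre, and each panel has its own vertical scale starting at 0.

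Measured from the same TSS, ETS and NRF1 matches were most frequent just upstream, where centres were few. In windows of 50 bp around the TSS nearest to each of the 1421 peaks, the ETS site was found in 9.36% from 50 to 1 bp upstream, in 4.29% from 0 to 49 bp downstream and in 1.76% from 50 to 99 bp downstream, where the centres were most frequent. In the window farthest upstream it was found in 1.90%. The NRF1 site was found in 2.18% from 50 to 1 bp upstream and in 0.0704% (1 peak) from 50 to 99 bp downstream. The GC box was found in 23.6% from 50 to 1 bp upstream and in 13.4% from 50 to 99 bp downstream. Around the outermost coding TSSs of the 1304 genes with a single-TSS peak, a position that need not be the TSS nearest to the peak, the ETS site was found in 9.59% from 50 to 1 bp upstream and 8.59% from 0 to 49 bp downstream, against 3.06% and 2.16% for genes without a peak. These sets were not restricted to CpG-rich TSSs, which made up 1045 of the 1304 and 7534 of the 18126 without a peak.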

How the data were processed

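Methylated Pontin ChIP-seq of MEFs was analysed from the deposited peak list of 1 library, the ChIP under glucose starvation, of the 4 libraries in the series. Bowtie2 (alignment to GRCm38) and HOMER 4.7.2 (peaks against an input) were used by the authors. Each peak is 481 bp wide. The deposited signal is the tag count per 10000000 of 20765512 tags, and the score is the authors' own. The authors computed 2 ratios for each peak, against the input and against the 10 kb around it, each with its Poisson p-value. The authors required a false discovery rate of 0.001 (threshold of 18 tags), at least 4-fold for both ratios and a p-value of at most 0.0001. Regions below these limits could not be examined. The name of 1 column of tags did not show its library, and it was left out. The input behind a ratio was computed as the deposited scaled signal divided by the fold over input.

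Distances ran from each centre to the closest TSS of 141767 GENCODE vM21 transcripts, and sequences came from the GRCm38 assembly. Shares have 95% Wilson intervals, medians have 95% order-statistic intervals and tag counts have exact Poisson intervals. The peaks of the library are not replicates, and intervals cover counting error only. The procedures were tested on simulated data. The members, lists, motifs and comparisons were chosen with earlier results of these data known. The genes named were the 10 peaks with the most tags, the 10 with the highest fold over input, the 5 with the highest fold over the surroundings, the 3 peaks on each side of the distance limit, up to 4 peaks with the most tags per list, peaks carrying a motif and the genes that the study assayed, with exceptions marked. Some genes that this rule names are not reported here. Alternatives changed the distance limit, the annotation, the divergent rule, the peaks kept and the windows. The software was pysam 0.24.0, pandas 2.3.3, matplotlib 3.10.9, SciPy 1.17.1 and NumPy 2.4.6 in Python 3.11.15.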

Additional observations from a re-analysis of the deposited data

How the results depend on the processing

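All values rest on 1 library and a list that was already filtered, so an alternative shows how a description moves and not whether it would recur. A value counted as moved when it left its own 95% interval, or, for a count of peaks, when it changed by over 1.5 times. Of 94 recomputed values other than motif shares, 60 had not moved and 34 had, and of 100 recomputed motif shares 80 had not moved and 20 had. No paired analysis was possible because each group had 1 library and no test was run.

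With a limit of 100 bp there were 578 peaks (13.4% of all), of which 69.7% had the centre downstream and 83.0% a CpG-rich centre, with a median GC content of 66.5%, and 2.37% of genes had such a peak. With a limit of 500 bp there were 2319 peaks (53.8%), with 52.7% downstream, 58.3% CpG-rich, a GC content of 58.5% and 10.2% of genes. With TSSs of protein-coding genes only, the share of all peaks was 29.97%, the CpG-rich share 76.1% and the protein-coding share 100% by construction. With the divergent pairs kept, the share of all peaks was 40.1%, the protein-coding share 89.7% and the share of genes 8.05%. Peaks at least 8-fold over input left 835 peaks (34.6% of those kept) at 3.51% of genes, with medians of 15.2 tags, 14.95-fold over input and 5.19-fold over the surroundings. Peaks at or above the median score left 810 (35.7%) at 3.42% of genes, with medians of 17.1 tags, 9.89-fold and 5.28-fold. Both of these keep the higher peaks by construction. A stricter limit for CpG-rich DNA, a GC content of at least 55% and a CpG ratio of at least 0.65, gave 63.3%. Over the whole peak the median GC content was 62.4%, and motif shares were higher in this wider window, from 2.96% for the CRE and 3.17% for the FOXO site to 26.6% for the ETS site and 70.6% for the GC box. The FOXO share was 1.64% with a limit of 500 bp, the YY1 share 4.84% with a limit of 100 bp and the NRF1 share 0.617% among the peaks at or above the median score. Peaks with exactly 1 TSS position within 1000 bp, an alternative chosen after seeing the data, had 58.2% of centres downstream and a GC content of 62.5%. Without chromosome 8 no value moved.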
